A study of Mus musculus with 80 samples.

Results

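Expression of 7 genes for nucleosome core histones was described in mouse heart tissue after spontaneous sleep and after sleep deprivation. The genes were H2bc4, H2bc3 and H2bc21, which encode histone H2B, H4c4, which encodes histone H4, and the variant genes H3f3b (H3.3), H2ax (H2A.X) and H2az1 (H2A.Z). They were taken by name from the 18820 genes that had a probe set carrying a single gene symbol. Of the 35556 probe sets on the array, 9 carried only the symbol of one of the 7 genes, and for H2bc4 and H2az1, which had 2 each, the probe set with the higher mean was used.

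The study asked which heart transcripts differ between sleep and enforced wakefulness at the same time of day, with 1 Affymetrix Mouse Gene 1.0 ST array for each of 80 male C57BL/6J mice of 10 ± 1 weeks. The sleep-deprived animals were handled gently from lights-on so that they stayed awake, and were killed after 3, 6, 9 or 12 h (n = 8, 9, 9 and 8). The sleeping animals were left undisturbed and killed at the same times (n = 9 each), and the baseline animals were killed at lights-on (n = 10). All mice lived on a 12 h light and 12 h dark cycle and had food only in the dark phase, and no mutant allele or drug is named for any group. Each value is a log2 intensity after RMA (robust multi-array average) normalization, so that a difference of 1 is a 2-fold change. Levels of different probe sets were set against each other only to rank their brightness, and were averaged only over gene lists. Handling cannot be told apart from wakefulness in this design, and hours asleep or awake cannot be told apart from time of day within a state.

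The median of an array was between 5.23 and 5.39, and any 2 arrays correlated with r between 0.978 and 0.995. All 9 cardiomyocyte markers lay above the 99.02th percentile of the probe sets. By mean, H2bc21, H2bc3 and H2ax lay near the middle of the probe sets, at the 50.01th, 54.3th and 56.6th percentile. H2az1, H3f3b, H4c4 and H2bc4 lay at the 86.8th, 95.8th, 96.6th and 96.9th. The title numbers of the arrays have no gap, and they were split into 4 runs where the order of groups starts again. The bounds of the runs are thus inferred and not given by the labels. Runs 1 and 2 hold all 9 and 12 h animals, and runs 3 and 4 hold baseline and all 3 and 6 h animals. The labels do not say what a run stands for. On 5 arrays the mean correlation with the others was unusually low (beyond 1.5 interquartile ranges from the lower quartile). They were 1 deprived animal each at 3, 6 and 12 h and 1 sleeping animal each at 3 and 9 h, and results that depended on them are given with and without. Between states, 1221 probe sets were higher and 1758 lower in deprived hearts at a false discovery rate (FDR) of 1%. Centering each array on its median moved this split to 1774 higher and 1182 lower.

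Core histones H2A, H2B, H3 and H4 form the protein octamer around which DNA is wound in the nucleosome. Most of their genes lie in clusters and are expressed mainly in S phase, when new chromatin is built, as messages that end in a stem-loop in place of a poly(A) tail. Replacement variants such as H3.3 and H2A.Z are made throughout the cell cycle and are exchanged into chromatin independently of replication, also in cells that no longer divide, as most adult cardiomyocytes.

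The promoters of 4 of the 7 genes (H2bc3, H4c4, H3f3b and H2az1) were found in a RefSeq table of the mouse build GRCm38.p6. The 250 bases before the transcript start are shown for the 3 of them that passed the test in some comparison below, so that a clustered gene, a replacement variant and H2A.Z can be set side by side. H2bc3 lies on the forward strand (chr13:23746484-23746733), H3f3b on the reverse strand (chr11:116024505-116024754) and H2az1 on the forward strand (chr3:137864237-137864486). The H3f3b start used by the table lies 1535 bases inside the annotated gene, so this is 1 of its starts. Capitals mark the motifs searched on both strands, which were the octamer ATTTGCAT, the CCAAT box, the TATA box TATAAA, the GC box GGGCGG, the E-box CACGTG and the cAMP response element TGACGTCA, and no match overlapped another.
H2bc3: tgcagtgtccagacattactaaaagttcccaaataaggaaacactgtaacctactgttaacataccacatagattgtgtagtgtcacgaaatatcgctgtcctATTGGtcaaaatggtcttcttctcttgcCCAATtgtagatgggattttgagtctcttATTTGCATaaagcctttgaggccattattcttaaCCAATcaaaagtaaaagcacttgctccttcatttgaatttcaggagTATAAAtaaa
H3f3b: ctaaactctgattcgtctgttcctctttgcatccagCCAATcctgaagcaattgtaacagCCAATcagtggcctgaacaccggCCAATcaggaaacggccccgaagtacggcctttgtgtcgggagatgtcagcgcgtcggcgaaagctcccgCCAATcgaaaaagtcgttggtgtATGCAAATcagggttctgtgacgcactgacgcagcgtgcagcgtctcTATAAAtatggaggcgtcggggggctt
H2az1: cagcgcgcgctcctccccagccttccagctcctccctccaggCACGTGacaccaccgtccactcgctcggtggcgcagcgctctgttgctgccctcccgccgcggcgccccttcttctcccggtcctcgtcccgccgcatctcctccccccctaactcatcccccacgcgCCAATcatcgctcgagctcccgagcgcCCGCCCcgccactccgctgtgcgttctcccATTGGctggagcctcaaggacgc
The windows of H2bc3 and H3f3b each held 1 octamer, which 1.6% of 32851 windows of this length held. Both also held a TATA box (12.4% of windows) close to the start and several CCAAT boxes, 3 in H2bc3 and 4 in H3f3b, where 33.8% of windows held at least 1. The H2az1 window held no octamer and no TATAAA, but 2 CCAAT boxes, 1 GC box (32.7% of windows) and 1 E-box (6.02% of windows). H4c4, whose sequence is not shown, held 1 CCAAT box, 1 TATA box and 1 GC box. None of the 4 held the cAMP response element, which 1.55% of windows held. GC content was 36% in H2bc3, 54% in H3f3b and 71.2% in H2az1.

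The 3 H2B genes were all higher in deprived than in sleeping hearts when the 4 times were pooled, by 0.17 to 0.21 on the log2 scale, and H3f3b was lower, with a difference of -0.16. H4c4, H2ax and H2az1 did not pass the test. In the 70 arrays of both states, 3 of the 7 genes were thus called higher and 1 lower by limma at an FDR of 1%, beside 3.43% and 4.94% of all probe sets. The tissue was measured in bulk, so fewer cells of a type and less RNA per cell cannot be told apart.

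H2bc4, an H2B gene of the large cluster on chromosome 13, spanned 10.69, 10.88 and 11.33 in deprived hearts, against 10.45, 10.72 and 10.995 in sleeping hearts (lowest, median and highest of 34 and 36 animals). The ranges overlapped, but the deprived group reached further up and the sleeping group further down. Expression averaged 10.91 ± 0.15 in deprived and 10.70 ± 0.15 in sleeping hearts (SD, n = 34 and 36), a difference of 0.21 ± 0.036 (SE, limma adjusted p = 9.42e-06), and 29 of 34 deprived animals lay above the sleeping mean of their own time. Within runs 1 to 4, with time of day in the model, the difference was 0.31, 0.31, 0.049 and 0.18, and it passed the test in run 1 alone (adjusted p = 0.0094).

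By time, H2bc4 was higher in deprived hearts at 9 and 12 h and was not called at 3 or 6 h. At 3 h the lowest, median and highest values were 10.69, 10.89 and 11.04 in deprived hearts, against 10.80, 10.85 and 10.97 in sleeping hearts, with the sleeping range inside the deprived one (difference 0.022 ± 0.061, adjusted p = 0.907). At 6 h they were 10.71, 10.91 and 11.22 in deprived hearts, against 10.66, 10.71 and 10.995 in sleeping hearts (0.20 ± 0.060, adjusted p = 0.031), and 7 of 9 deprived animals lay above the sleeping mean. The highest sleeping animal at 6 h lay apart from the other 8, which did not exceed 10.74, and without it the difference was 0.23 and passed the test (adjusted p = 0.00907). That animal was picked after its value was seen, and leaving out the highest sleeping value can only widen the difference. No conclusion about 6 h is drawn from this fit. At 9 h they were 10.69, 10.87 and 11.13 in deprived hearts, against 10.46, 10.63 and 10.85 in sleeping hearts (0.25 ± 0.060, adjusted p = 0.00281). All 9 deprived animals exceeded the sleeping mean of that time, and 5 lay above every sleeping animal. At 12 h they were 10.74, 10.88 and 11.33 in deprived hearts, against 10.45, 10.53 and 10.75 in sleeping hearts (0.37 ± 0.061, adjusted p = 2.34e-05). All 8 deprived animals lay above the sleeping mean, and 7 lay above every sleeping animal, so that a single deprived animal overlapped with the sleeping range. H2bc4 was the only one of the 7 genes called higher at 9 h (1.60% of all probe sets) and at 12 h (1.44%). Without the deprived 12 h animal with the highest value, whose array was among those that stand apart, the 12 h difference was 0.31 (adjusted p = 3.07e-04). Fitted on the arrays of 9 h alone, the 9 h difference was 0.25 and its adjusted p was 0.0422. The test of whether the state difference itself changed with time gave F = 5.59 and an adjusted p of 0.0685, which missed the threshold.

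H2bc3, an H2B gene of the same cluster, spanned 5.28, 5.70 and 6.39 in deprived hearts, against 5.01, 5.60 and 5.85 in sleeping hearts. It averaged 5.76 ± 0.23 in deprived and 5.56 ± 0.20 in sleeping hearts (SD, n = 34 and 36), a difference of 0.20 ± 0.050 (adjusted p = 0.00314), and 30 of 34 deprived animals lay above the sleeping mean of their time. Over both times of runs 1 to 4 the difference was 0.21, 0.15, 0.21 and 0.20, and none of these passed on its own. At single times the runs were less alike. Runs 3 and 4 gave 0.50 and 0.11 at 3 h, and -0.043 and 0.29 at 6 h. Runs 1 and 2 gave 0.34 and 0.066 at 9 h, and 0.082 and 0.25 at 12 h. With the 5 arrays that stand apart removed, the pooled difference was 0.18 and missed the threshold (adjusted p = 0.0104). It also missed the threshold when animals of 1 time were removed, except for those of 6 h. Removing the 3 h animals gave 0.16 (adjusted p = 0.0337), removing those of 9 h gave 0.19 (adjusted p = 0.0201) and removing those of 12 h gave 0.21 (adjusted p = 0.0175).

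The single times of H2bc3 did not pass the test. At 3 h the values were 5.59, 5.82 and 6.39 in deprived hearts, against 5.14, 5.63 and 5.80 in sleeping hearts (0.32 ± 0.095, adjusted p = 0.0361), with all 8 deprived animals above the sleeping mean and 4 above every sleeping animal. At 6 h they were 5.28, 5.71 and 6.24 in deprived hearts, against 5.48, 5.67 and 5.85 in sleeping hearts (0.11 ± 0.092, adjusted p = 0.643). The deprived animals at 6 h spread further both down and up than the sleeping animals. At 9 h they were 5.34, 5.66 and 5.88 in deprived hearts, against 5.01, 5.49 and 5.72 in sleeping hearts (0.22 ± 0.092, adjusted p = 0.14). At 12 h they were 5.52, 5.76 and 5.98 in deprived hearts, against 5.32, 5.62 and 5.77 in sleeping hearts (0.15 ± 0.095, adjusted p = 0.377). The groups overlapped at all 4 times, and the change of the difference with time was not past the threshold (F = 0.984, adjusted p = 0.658).

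H2bc21, an H2B gene of the smaller cluster on chromosome 3, was called at a single time, 6 h. Over all times it spanned 5.17, 5.36 and 5.73 in deprived hearts, against 4.86, 5.17 and 5.56 in sleeping hearts. It averaged 5.39 ± 0.15 in deprived and 5.22 ± 0.20 in sleeping hearts (SD, n = 34 and 36), a difference of 0.17 ± 0.042 (adjusted p = 0.00247), with 29 of 34 deprived animals above the sleeping mean of their time. At 6 h the values were 5.17, 5.39 and 5.64 in deprived hearts, against 4.90, 5.08 and 5.14 in sleeping hearts. The groups did not overlap at that time, since all 9 deprived animals lay above the highest of the 9 sleeping animals. The difference of 0.34 ± 0.078 made H2bc21 the only one of the 7 genes called higher at 6 h (adjusted p = 0.00211), where 1.004% of all probe sets were called higher, and it was 0.42 within run 3 and 0.24 within run 4.

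At the other times the H2bc21 groups overlapped. At 3 h the values were 5.30, 5.39 and 5.53 in deprived hearts, against 5.07, 5.33 and 5.51 in sleeping hearts (0.098 ± 0.080, adjusted p = 0.583). At 9 h they were 5.23, 5.28 and 5.73 in deprived hearts, against 4.86, 5.36 and 5.47 in sleeping hearts (0.11 ± 0.078, adjusted p = 0.404). At 12 h they were 5.20, 5.36 and 5.61 in deprived hearts, against 4.88, 5.32 and 5.56 in sleeping hearts (0.11 ± 0.080, adjusted p = 0.46). Leaving out the 6 h animals, the pooled difference was 0.11 and no longer passed (adjusted p = 0.155), although the interaction of state and time did not pass either (F = 2.28, adjusted p = 0.338). Within runs the pooled difference was 0.11, 0.14, 0.30 and 0.13, past the threshold in run 3 alone (adjusted p = 0.00786).

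**Figure D1:**
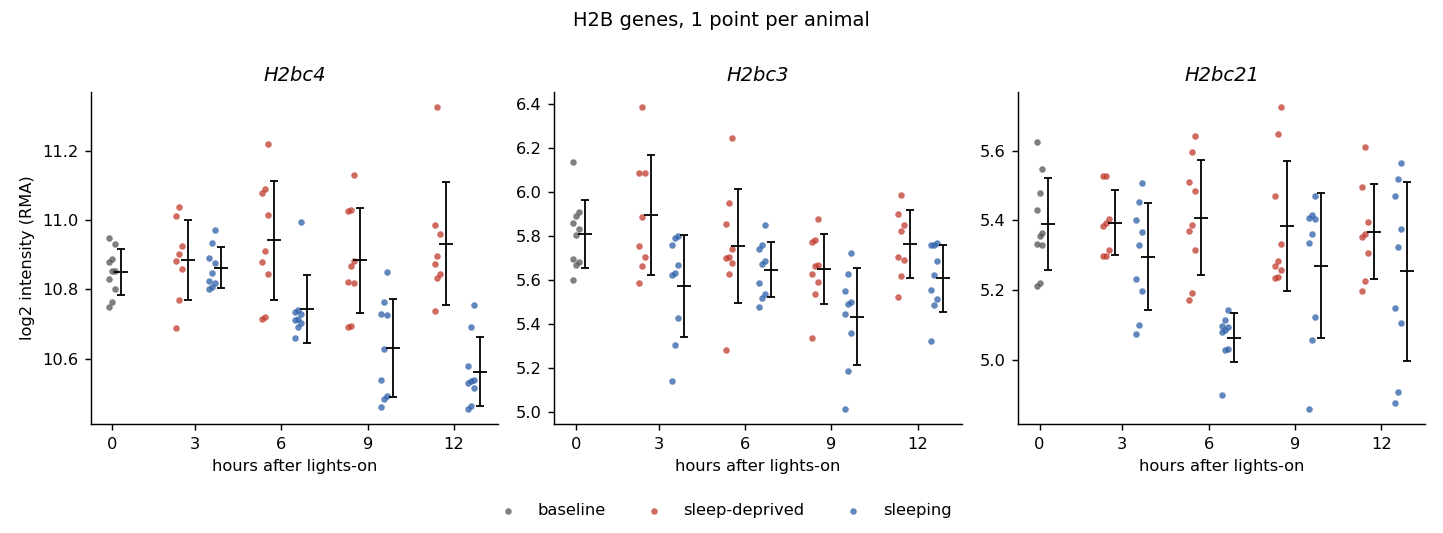
Log2 intensity of H2bc4, H2bc3 and H2bc21 (vertical axes, each with its own range) against hours after lights-on, with 1 point per animal, baseline in gray, sleep-deprived in red and sleeping in blue, and the group mean ± SD as a black bar. The sleeping H2bc4 means are lower at 9 and 12 h (10.63 and 10.56) than at 3 h (10.86), although the points of 9 and 3 h overlap. The deprived H2bc4 means lie between 10.88 and 10.94. The 9 sleeping H2bc21 values at 6 h, of at most 5.14, lie below all deprived values of that time.

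Markers of some other cell types moved with state in the same arrays. Over all probe sets 3.43% were higher and 4.94% lower in the pooled comparison, which the pooled counts below can be read beside. Of 10 endothelial markers 5 were higher in deprived hearts (Pecam1, Eng, Flt1, Vwf and Esam) and none was lower, and their mean log2 level was 9.79 (9.63 to 9.96) in deprived and 9.69 (9.51 to 9.87) in sleeping hearts. Of 10 macrophage and monocyte markers 2 were higher (Cd14 and C1qb), with a mean level of 7.69 (7.46 to 8.47) in deprived and 7.61 (7.42 to 7.80) in sleeping hearts. None of 8 neutrophil and none of 9 lymphocyte markers was called in the pooled comparison, and of these markers none and 1 lay above the median of all probe sets. At 12 h, however, 3 of the 9 lymphocyte markers were lower in deprived hearts (Cd79a, Cd3g and Cd3e), with -0.90 ± 0.20 for Cd3g (adjusted p = 0.00201) and a list median of -0.51, beside -0.0020 over all probe sets. Of the endothelial markers none was called at 3 h and 3 were higher at each of 6, 9 and 12 h, and the 2 macrophage markers were also higher at 12 h. Over all probe sets 1.004%, 1.60% and 1.44% were higher at 6, 9 and 12 h, and 601 of 35556 were lower at 12 h. Of the other types, 1 of 8 fibroblast markers (Lum), 3 of 8 smooth muscle and pericyte markers (Pdgfrb, Kcnj8 and Abcc9), 1 of 4 erythroid markers (Tfrc) and 1 of 9 cardiomyocyte markers (Ttn) were lower, and none of 7 adipocyte markers was called, although their mean ranged from 5.21 to 8.85 over deprived and from 5.06 to 8.72 over sleeping animals. The median difference was -0.0056 for fibroblast, 0.026 for smooth muscle and pericyte, 0.098 for erythroid and -0.025 for cardiomyocyte markers. The smooth muscle and pericyte mean was 9.68 in deprived and 9.64 in sleeping hearts, and the erythroid mean 6.63 and 6.71. Of 25 genes of S phase and proliferation none was higher and 3 were lower (Ccne1, Gins1 and Ccnd1), and their mean was 5.95 (5.77 to 6.22) in deprived and 5.94 (5.70 to 6.15) in sleeping hearts. The part of these cells in the histone differences was not tested.

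H4c4, which encodes the H4 protein that the clustered H4 genes share, showed no difference between states that passed the test. It spanned 10.31, 10.74 and 11.05 in deprived hearts, against 10.24, 10.74 and 10.996 in sleeping hearts and averaged 10.71 ± 0.16 in deprived and 10.70 ± 0.17 in sleeping hearts (SD, n = 34 and 36). The pooled difference was 0.0077 ± 0.040 (adjusted p = 0.941, 95% interval -0.071 to 0.086). By time it was -0.13 ± 0.077 at 3 h, -0.095 ± 0.075 at 6 h, 0.11 ± 0.075 at 9 h and 0.14 ± 0.077 at 12 h, with the smallest adjusted p, 0.289, at 12 h. The sign thus differed between the early and the late times, but the interaction had an adjusted p of 0.209. Group means differed by at most 0.18 and the SD within groups was 0.16.

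H3f3b, 1 of the 2 mouse genes for the replacement histone H3.3, was lower in deprived hearts at 3, 6 and 9 h and was not called at 12 h. Over all times it spanned 10.02, 10.39 and 10.63 in deprived hearts, against 10.33, 10.52 and 10.76 in sleeping hearts. It averaged 10.38 ± 0.15 in deprived and 10.54 ± 0.11 in sleeping hearts (SD, n = 34 and 36), a difference of -0.16 ± 0.031 (adjusted p = 7.38e-05), with 28 of 34 deprived animals below the sleeping mean of their time. Within runs 1 to 4 the difference was -0.016, -0.15, -0.18 and -0.33, and it passed the test in run 4 alone (adjusted p = 0.0026). Runs 1 and 2, which gave -0.016 and -0.15, both hold 9 and 12 h animals. Without the 6 h animals the pooled difference was -0.14 (adjusted p = 0.0148).

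At 3 h the H3f3b values were 10.02, 10.23 and 10.35 in deprived hearts, against 10.42, 10.48 and 10.61 in sleeping hearts, with no overlap. The difference was -0.29 ± 0.044 (adjusted p = 5.15e-06), and H3f3b was the only one of the 7 genes called lower at this time, beside 0.754% of all probe sets. At 6 h the values were 10.22, 10.37 and 10.51 in deprived hearts, against 10.49, 10.61 and 10.68 in sleeping hearts (-0.22 ± 0.042, adjusted p = 1.61e-04), and 8 of 9 deprived animals lay below every sleeping animal. At 9 h they were 10.31, 10.51 and 10.59 in deprived hearts, against 10.52, 10.67 and 10.76 in sleeping hearts (-0.18 ± 0.042, adjusted p = 0.00264), and 5 of 9 deprived animals lay below every sleeping animal. H3f3b was again the only gene of the 7 called lower at 6 and at 9 h, beside 1.57% and 1.71% of all probe sets. At 12 h they were 10.29, 10.50 and 10.63 in deprived hearts, against 10.33, 10.44 and 10.55 in sleeping hearts, and the groups overlapped (0.047 ± 0.044, adjusted p = 0.599, 95% interval -0.038 to 0.13). The change of the state difference over the 4 times passed the test for H3f3b (F = 11.2, adjusted p = 0.00282) and for none of the other 6 genes, beside 0.371% of all probe sets. Fitted on the arrays of 9 h alone, the 9 h difference had an adjusted p of 0.029. Within single runs the difference was -0.25 and -0.32 at 3 h (runs 3 and 4), -0.13 and -0.35 at 6 h (runs 3 and 4), -0.13 and -0.25 at 9 h (runs 1 and 2), and 0.095 and -0.026 at 12 h (runs 1 and 2).

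H2ax, the H2A variant that is phosphorylated around DNA double-strand breaks, did not differ between states past the threshold. It spanned 5.54, 5.91 and 6.36 in deprived hearts, against 5.36, 5.81 and 6.21 in sleeping hearts and averaged 5.90 ± 0.18 in deprived and 5.82 ± 0.18 in sleeping hearts (SD, n = 34 and 36). The pooled difference was 0.087 ± 0.043 (adjusted p = 0.189, 95% interval 0.0035 to 0.17), with 25 of 34 deprived animals above the sleeping mean of their time. The estimate was above 0 at each time, with 0.14 ± 0.079 at 3 h, 0.0035 ± 0.076 at 6 h, 0.15 ± 0.076 at 9 h and 0.057 ± 0.079 at 12 h, and no adjusted p was under 0.251.

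H2az1 encodes H2A.Z, a variant placed in nucleosomes around transcription starts. It spanned 8.63, 8.83 and 8.98 in deprived hearts, against 8.62, 8.87 and 9.03 in sleeping hearts, and the ranges nearly coincided. It averaged 8.83 ± 0.08 in deprived and 8.87 ± 0.08 in sleeping hearts (SD, n = 34 and 36), a difference of -0.038 ± 0.020 (adjusted p = 0.229, 95% interval -0.077 to 0.0010). The largest difference was at 6 h, where the values were 8.71, 8.81 and 8.89 in deprived hearts, against 8.82, 8.91 and 8.99 in sleeping hearts (-0.10 ± 0.036, adjusted p = 0.0908). It was -0.0024 ± 0.037 at 3 h, 0.016 ± 0.036 at 9 h and -0.061 ± 0.037 at 12 h.

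**Figure D2:**
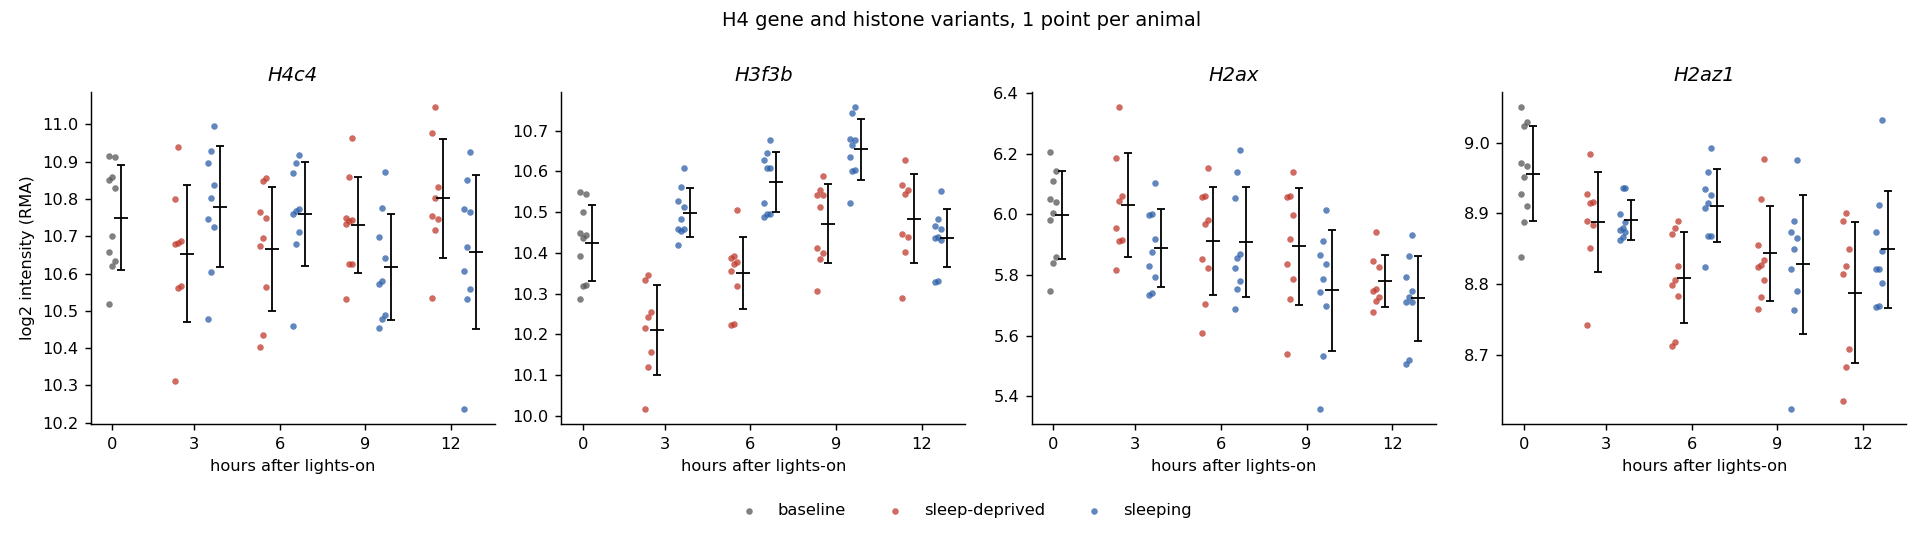
Log2 intensity of H4c4, H3f3b, H2ax and H2az1 (vertical axes, each with its own range) against hours after lights-on, drawn as in the plot of the H2B genes, with 1 point per animal and the group mean ± SD as a black bar. All 8 deprived H3f3b values at 3 h, of at most 10.35, lie below the sleeping values of that time, and at 12 h the 2 groups overlap.

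**Figure D3:**
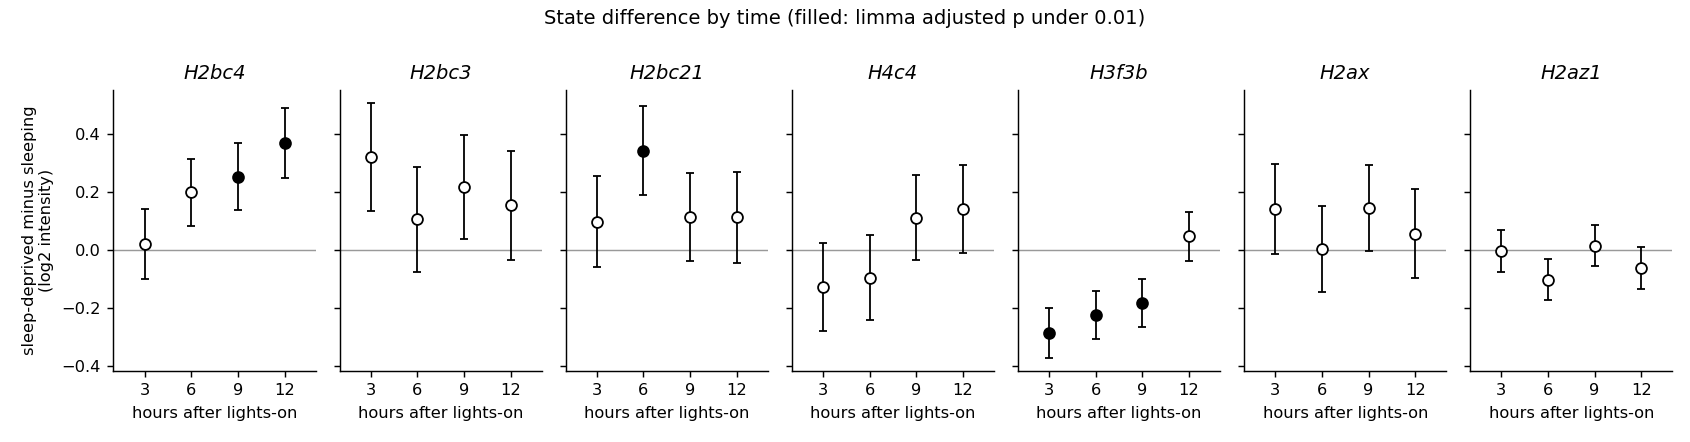
Difference in log2 intensity between sleep-deprived and sleeping hearts (vertical axis) at 3, 6, 9 and 12 h after lights-on (horizontal axes) for each of the 7 genes. Bars are 95% intervals from the limma fit of 9 group means, and filled points passed an adjusted p of 0.01, as H3f3b did at 3, 6 and 9 h, H2bc4 at 9 and 12 h and H2bc21 at 6 h.

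Each group was also set against the lights-on baseline, whose 10 animals serve in all 8 of these comparisons. For the H2B genes all calls fell in the sleeping groups and none in the deprived groups. H2bc4 at baseline had 10.75, 10.85 and 10.95 as lowest, median and highest value. In deprived hearts it differed from that by 0.035 ± 0.060 at 3 h, 0.092 ± 0.058 at 6 h, 0.035 ± 0.058 at 9 h and 0.083 ± 0.060 at 12 h, none past the threshold. In sleeping hearts it was lower than baseline at 9 h, with a difference of -0.22 ± 0.058 (adjusted p = 0.00475), and at 12 h, with a difference of -0.29 ± 0.058 (adjusted p = 9.42e-05). Of the 9 sleeping animals, 7 at 9 h and 8 at 12 h lay below every baseline animal. At 3 and 6 h of sleep the differences were 0.014 ± 0.058 and -0.11 ± 0.058 and did not pass.

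H2bc3 at baseline had 5.60, 5.82 and 6.13, and was lower after 9 h of sleep, with a difference of -0.38 ± 0.090 (adjusted p = 0.00162), all 9 sleeping animals lying below the baseline mean. Its differences were -0.24 ± 0.090, -0.16 ± 0.090 and -0.20 ± 0.090 after 3, 6 and 12 h of sleep, and between -0.16 and 0.086 in the deprived groups, none past the threshold. H2bc21 at baseline had 5.21, 5.36 and 5.62, and was lower after 6 h of sleep, with a difference of -0.33 ± 0.076 (adjusted p = 0.00429), all 9 sleeping animals lying below every baseline animal. Without the lowest of these 9 animals, which lay apart from the rest, the difference was -0.31 and missed the threshold (adjusted p = 0.0122). In the 4 deprived groups H2bc21 lay within -0.022 to 0.018 of baseline.

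H3f3b moved away from baseline in both states, in opposite directions and at different times. At baseline it had 10.29, 10.44 and 10.55. After 3 h of deprivation it was lower, with a difference of -0.21 ± 0.043 (adjusted p = 6.65e-04), and 6 of 8 animals lay below every baseline animal. The differences after 6, 9 and 12 h of deprivation were -0.073 ± 0.041, 0.048 ± 0.041 and 0.059 ± 0.043 and did not pass. After 9 h of sleep H3f3b was higher than baseline, with a difference of 0.23 ± 0.041 (adjusted p = 2.14e-05), and 8 of 9 animals lay above every baseline animal. After 3, 6 and 12 h of sleep the differences were 0.074 ± 0.041, 0.15 ± 0.041 and 0.012 ± 0.041, none past the threshold. Within run 3, the only run with baseline animals, the difference after 3 h of deprivation was -0.18 (adjusted p = 0.0586).

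H2ax and H2az1 were called only as lower than baseline. H2ax at baseline had 5.75, 6.02 and 6.21, and was lower after 12 h of sleep (5.51, 5.73 and 5.93), with a difference of -0.27 ± 0.074 (adjusted p = 0.00435). After 12 h of deprivation its values were 5.68, 5.75 and 5.94 and the difference was -0.22 ± 0.077 (adjusted p = 0.0422). H2az1 at baseline had 8.84, 8.96 and 9.05, the highest of its 9 group means. It was lower after 6 h of deprivation, with a difference of -0.15 ± 0.035 (adjusted p = 0.00272), and after 12 h of deprivation, with a difference of -0.17 ± 0.036 (adjusted p = 2.85e-04), where the values were 8.63, 8.82 and 8.90. It was also lower after 9 h of sleep, with a difference of -0.13 ± 0.035 (adjusted p = 0.00653), but not without the 5 arrays that stand apart (-0.10, adjusted p = 0.0258), 1 of which held the lowest sleeping value of that time. After 9 h of deprivation and 12 h of sleep the differences were -0.11 ± 0.035 (adjusted p = 0.0234) and -0.11 ± 0.035 (adjusted p = 0.0225). H4c4, with 10.52, 10.76 and 10.92 at baseline, was called in none of the 8 groups, where its differences lay between -0.13 and 0.052.

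Of the 7 genes, the number called lower than baseline was 1 after 6 h of sleep (0.726% of all probe sets), 3 after 9 h (4.96%) and 2 after 12 h (6.51%), and 1 was called higher after 9 h (3.47%). In the deprived groups 1 was called lower after 3 h (0.810%), 1 after 6 h (2.68%) and 1 after 12 h (5.90%). Calls at 9 and 12 h compare arrays of runs 1 and 2 with baseline arrays of run 3, so that run and time cannot be told apart in them.

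Trends over hours were fitted as slopes in baseline and deprived animals (44 arrays) and in baseline and sleeping animals (46 arrays), which share the baseline. H2bc4 had a slope of 0.0056 ± 0.0049 per hour (adjusted p = 0.52) over deprivation and fell over sleep, with a slope of -0.027 ± 0.0035 per hour (adjusted p = 5.08e-08). H2ax had a slope of -0.018 ± 0.0056 per hour (adjusted p = 0.0165) over deprivation and fell over sleep, with -0.023 ± 0.0054 per hour (adjusted p = 9.79e-04). H2az1 fell over both, with -0.013 ± 0.0029 per hour (adjusted p = 9.95e-04) over deprivation and -0.0093 ± 0.0026 per hour (adjusted p = 0.00617) over sleep. Thus 1 of the 7 genes was called lower over deprivation, beside 6.09% of all probe sets, and 3 over sleep, beside 9.32%. The slopes that did not pass lay between -0.011 (H2bc3) and 0.011 (H3f3b) over deprivation among the other 4 genes, and between -0.019 (H2bc3) and 0.0064 (H3f3b) over sleep. The difference between the 2 slopes of a gene was not tested.

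These slopes rest on baseline and on the late times, which lie in different runs. On the arrays of runs 1 and 2 together, which hold 9 and 12 h, and of runs 3 and 4 together, which hold 0 to 6 h, the H2bc4 slope over sleep was -0.023 and -0.017 per hour, below 0 in both and past the threshold in neither. These fits had no term for run. All baseline arrays lie in run 3, so that a difference between runs 3 and 4 can enter the slopes over 0 to 6 h. For H2ax the slope over sleep was -0.0086 and -0.015. For H2az1 it was 0.0072, above 0, and -0.0078, and over deprivation it was -0.018 and -0.024. Slopes that passed in these fits were those of H2bc21 over 0 to 6 h of sleep (-0.054, adjusted p = 7.07e-04) and of H3f3b between 9 and 12 h of sleep (-0.072, adjusted p = 0.00674), neither of which was called over the whole span. Without baseline the H2bc4 slope over sleep was -0.034 (adjusted p = 5.74e-06), and the H2ax and H2az1 slopes over sleep no longer passed (adjusted p = 0.0445 and 0.21). Over deprivation without baseline, the H2az1 slope was -0.0086 and no longer passed (adjusted p = 0.286), while that of H3f3b was 0.031 and passed (adjusted p = 1.92e-04). Without the 12 h animals, the slopes of H2ax and H2az1 over sleep no longer passed (adjusted p = 0.032 and 0.0177), nor did that of H2az1 over deprivation (adjusted p = 0.0125). Over 0 to 9 h of sleep, H3f3b then rose, by 0.025 per hour (adjusted p = 8.02e-06), and H2bc3 fell, with -0.035 per hour (adjusted p = 0.00651). Of the 10 endothelial markers 5 fell and 1 rose over sleep, of the 7 adipocyte markers 4 rose and none fell, and of the 9 lymphocyte markers 2 rose (Cd3g and Cd3e), and the part of these cells in the slopes was not tested. Over all probe sets 9.32% fell and 8.23% rose over sleep.

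**Figure D4:**
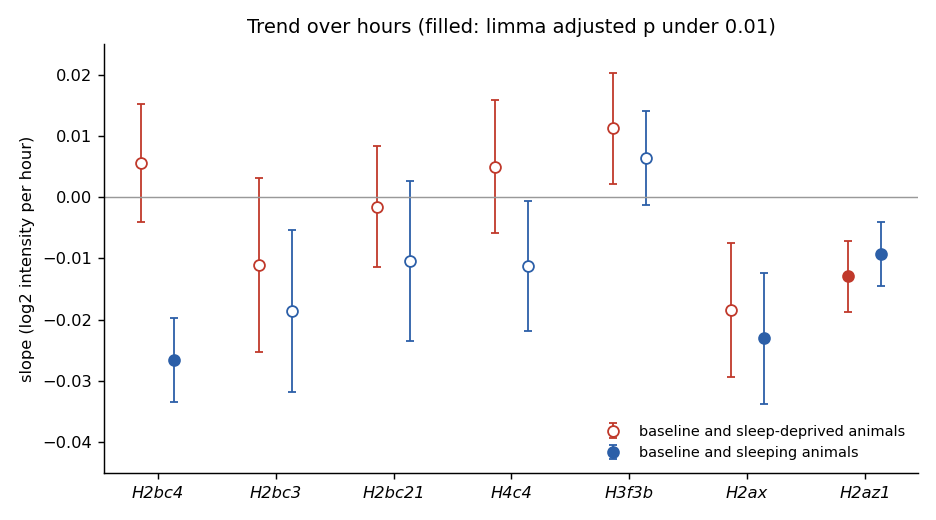
Slope of log2 intensity on hours after lights-on (vertical axis) for each of the 7 genes, in baseline and sleep-deprived animals (red, left) and in baseline and sleeping animals (blue, right). Bars are 95% intervals, and filled points passed an adjusted p of 0.01, which were H2az1 over deprivation and H2bc4, H2ax and H2az1 over sleep.

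When the 9 group means of each gene were put in order, neighbors mostly differed by less than the SD within groups. The largest gap between neighbors was 0.11 for H2bc4 (SD within groups 0.13), 0.14 for H2bc3 (0.20), 0.11 for H2ax (0.16), 0.045 for H2az1 (0.073) and 0.065 for H4c4 (0.16). For H2bc21 the sleeping 6 h group, at 5.06, lay 0.19 below the next group, sleeping 12 h at 5.25, against an SD of 0.17. For H3f3b the deprived 3 h group, at 10.21, lay 0.14 below the next, deprived 6 h at 10.35, against an SD of 0.087. The order for H2bc4 put the 4 deprived groups at the top (10.88 to 10.94), then sleeping 3 h and baseline (10.86 and 10.85), then sleeping 6, 9 and 12 h (10.74, 10.63 and 10.56). For H3f3b the sleeping 9, 6 and 3 h groups stood at the top (10.65, 10.57 and 10.50) and the deprived 6 and 3 h groups at the bottom. The spread between animals was not called as unequal over baseline and the sleeping groups for any of the 7 genes (smallest Bartlett adjusted p = 0.213, for H2bc21), while 0.458% of all probe sets were called for unequal spread.

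The H2B genes are nearly identical in their coding sequence, as are the H4 genes, so that the values of H2bc4, H2bc3, H2bc21 and H4c4 may include signal from their relatives. The second H2bc4 probe set was dim (mean 4.37, at the 36.4th percentile of probe sets) and did not follow the first: its difference between states was 0.076 ± 0.044 (adjusted p = 0.29), and r between both was 0.22 over 80 arrays. A further 5 probe sets carried 10 or 11 H2B symbols including H2bc4, and 2 of these held the same values. All 5 were higher in deprived hearts, by 0.26 to 0.28 (largest adjusted p = 4.68e-04), and all fell over sleep, with slopes of -0.036 to -0.031 per hour. Their differences were 0.44 to 0.50 at 12 h and 0.066 to 0.10 at 6 h, where none passed. The second H2az1 probe set followed the first closely (r = 0.91 over 80 arrays), with a slope of -0.014 over deprivation (adjusted p = 5.37e-04) and -0.0078 over sleep (adjusted p = 0.0574, past the threshold for the first probe set only). Against baseline it was lower after 6 h and 12 h of deprivation (-0.15 and -0.17, adjusted p = 0.00839 and 0.00137), as the first was. After 9 h of sleep its difference was -0.14 ± 0.039 and missed the threshold (adjusted p = 0.0108), unlike that of the first.

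The other genes of the histone family were read from lists of symbols. Of 25 measured core histone genes of the replication-dependent clusters, 7 were higher in deprived hearts and none lower (3.43% and 4.94% of all probe sets), with a median difference of 0.11 beside -0.0064 over all probe sets. The 7 were H2bc4, H2bc3 and H2bc21 and 4 of the 21 genes not described above: H3c4 (0.43 ± 0.045, adjusted p = 1.07e-11), H3c15 (0.47 ± 0.082), H2bc14 (0.25 ± 0.061) and H2bc8 (0.22 ± 0.039), of which H3c15 and H2bc14 were named after their values were seen. H3c4, an H3 gene of the chromosome 13 cluster, was called at each of the 4 times, with 0.40 ± 0.091 at 3 h, 0.50 ± 0.089 at 6 h, 0.43 ± 0.089 at 9 h and 0.41 ± 0.091 at 12 h. Over sleep 4 of the 25 fell (H3c4, H2bc4, H2bc9 and H3c15) and none rose (9.32% and 8.23% of all probe sets, median slope -0.011, 0.0013 over all probe sets), and over deprivation none was called in either direction (median -0.0037, -0.00084 over all). Many of these genes are near copies, so that they are not independent measurements.

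Of 10 core histone genes listed as replacement or variant genes, 1 was higher (H2aw, 0.15 ± 0.034) and 3 were lower (median -0.011). Over all probe sets 3.43% were higher and 4.94% lower. The list was made by symbol, and whether H2aw is a replacement variant was not checked. Besides H3f3b, the lower genes were Cenpa, the H3 variant of centromeres (-0.26 ± 0.033, adjusted p = 7.37e-09), and Macroh2a2, a macroH2A gene (-0.27 ± 0.059, adjusted p = 5.96e-04). H3f3a, the other H3.3 gene, which encodes the same protein as H3f3b, had a difference of -0.0062 ± 0.020 (adjusted p = 0.897), and H2az2, the second H2A.Z gene, of -0.016 ± 0.022 (adjusted p = 0.719). None of 6 linker histone (H1) genes was called, with H1f3 (0.091 ± 0.038, adjusted p = 0.106), H1f2 (-0.075 ± 0.034) and H1f5 (0.072 ± 0.042) having the smallest p, and their median was 0.044. Over hours Cenpa fell with deprivation (-0.024 ± 0.0045 per hour, adjusted p = 5.78e-05), as H2az1 did, H2az1 and H2ax fell with sleep, and no linker histone was called.

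**Figure D5:**
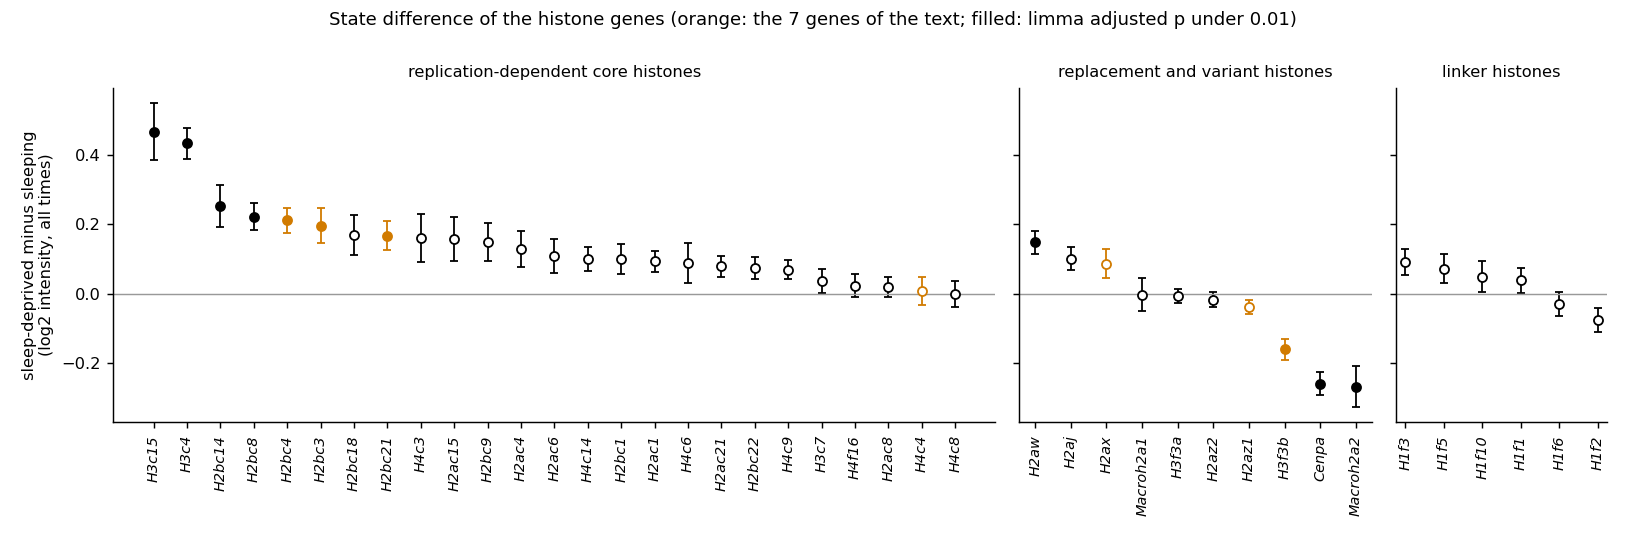
Difference in log2 intensity between sleep-deprived and sleeping hearts over all times (vertical axis) for the 25 measured replication-dependent core histone genes, 10 genes listed as replacement and variant histones and 6 linker histones, ordered by size within each panel. Bars are SE, orange marks the 7 genes described in the text, and filled points passed an adjusted p of 0.01, with 7 filled points above 0 and none below in the first panel.

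Genes that act on histones or their messages were mostly not called between states, where 3.43% of all probe sets were higher and 4.94% lower. With 1 or 2 calls in each list, these counts are not read as a result about the lists. Of 17 histone chaperones 1 was lower, Atrx, which with Daxx deposits H3.3 in heterochromatin (-0.17 ± 0.040, adjusted p = 0.00142), and the next smallest p values belonged to Ipo4, a histone import factor (0.090 ± 0.028, adjusted p = 0.0178), and Ubn1, a HIRA complex subunit (0.080 ± 0.025, adjusted p = 0.0234). Of 21 subunits of H2A.Z exchange complexes Actr6, a SRCAP subunit, was higher (0.14 ± 0.032) and Mbtd1, a TIP60 subunit, lower (-0.17 ± 0.033), while Ino80, an ATPase, had -0.072 ± 0.022 (adjusted p = 0.0141). Of 19 kinases, readers and phosphatases of phosphorylated H2AX, Baz1b, an H2AX tyrosine kinase, was higher (0.088 ± 0.024) and Rad50, of the MRN complex at breaks, lower (-0.16 ± 0.037), while Prkdc, the catalytic subunit of DNA-PK, had -0.10 ± 0.029 (adjusted p = 0.0112). Of 16 genes that transcribe or process histone messages, Sympk, a scaffold of the cleavage complex, was higher (0.10 ± 0.026) and Cpsf2, also in that complex, lower (-0.084 ± 0.022), while Slbp, which binds the histone stem-loop, had -0.096 ± 0.038 (adjusted p = 0.0786). The list medians were -0.015, -0.031, 0.00008 and -0.010 for chaperones, exchange complexes, H2AX factors and message processing.

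The message processing list had more calls over hours than between states. Over deprivation 6 of its 16 genes fell and none rose (6.09% and 4.07% of all probe sets), with a median slope of -0.0063, beside -0.00084 over all probe sets. Over sleep 6 fell and 1 rose (9.32% and 8.23%), with a median slope of -0.0058, beside 0.0013 over all. Slbp fell over both, with -0.027 ± 0.0059 per hour over deprivation (adjusted p = 6.17e-04) and -0.024 ± 0.0054 over sleep (adjusted p = 4.57e-04). Of the chaperones 2 rose and 1 fell over deprivation and 4 rose and 1 fell over sleep, where Atrx rose by 0.023 ± 0.0040 per hour. Of the exchange subunits 1 rose and 3 fell over deprivation and 3 rose and 1 fell over sleep. Of the H2AX factors 4 rose and none fell over deprivation and 5 rose and 2 fell over sleep, with Rad50 at 0.023 ± 0.0040 per hour over sleep. The runs differ between the early and the late times in these slopes as well.

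The genes whose profile over the 80 arrays was most like that of each histone gene were found by Pearson r, as a description over animals that share their states, times and runs. For H3f3b they were Srsf5 (0.84), Zfp810 (0.80) and Uri1 (0.77), with Srsf5 a splicing factor of the SR family. For H2bc4 they were Srgn (0.76), Myl12a (0.74) and Cox7a1 (0.73), of which Srgn encodes a granule proteoglycan and Cox7a1 a muscle subunit of cytochrome c oxidase. For H2bc3 they were H2bc14 (0.60), H2bc9 (0.58) and Rhog (0.58), the first 2 of which are H2B genes. For H2bc21, whose r values were the lowest, they were Derl2 (0.56), Edrf1 (0.54) and Letm2 (0.54). For H4c4 they were Grhpr (0.76), Mrps21 (0.76) and Mcrs1 (0.75), for H2ax Atf6b (0.69), Mall (0.65) and Elavl1 (0.65), where Elavl1 encodes an RNA-binding protein, and for H2az1 Eef1e1 (0.63), Nme1 (0.62) and Gtf2f1 (0.62). Among the 7 genes themselves the highest r was 0.44 (H2ax with H2az1), followed by 0.42 (H2bc4 with H2bc3), and the lowest were -0.51 (H3f3b with H2bc3) and -0.44 (H3f3b with H2bc4). After group means were removed, these 4 values were 0.35, 0.27, -0.25 and -0.38, and H2bc4 with H2bc21 had -0.35.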

How the data were processed

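Hearts of 80 mice were measured on 1 Affymetrix Mouse Gene 1.0 ST array each. The authors normalized all heart arrays together by RMA with the R package oligo and deposited log2 intensities. The decimal points were missing from the deposited values and were restored from each number's digits, since RMA values lie between about 1 and 14. Of 2844480 values, 173798 were read with 2 digits before the point and 1 could be read either way. Restored values spanned 1.38 to 13.8. Gene names came from the platform annotation, in which 21218 of 35556 probe sets had 1 symbol, 1881 several and 12457 none. For a gene with several probe sets, the brightest on average was used.

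Differences were tested with limma 3.58.1 in R 4.3.3, as the pooled state difference (70 arrays), as 9 group means (80 arrays; state at each time, its change over times, and each group against baseline) and as slopes on hours (44 and 46 arrays). P values were adjusted by Benjamini-Hochberg over all 35556 probe sets, and an adjusted p under 0.01 was called. Spread was compared over baseline and sleeping animals with Bartlett's test and the Brown-Forsythe test. The scripts were tested on simulated data with known effects. Groups came from the labels, each array being 1 animal, and precision is limited by how many animals there were.

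The 7 genes and all lists were chosen with earlier results of these data known. Named besides the 7 were up to 3 genes per list with the smallest p and the 3 genes most like each of the 7 by Pearson r, leaving out predicted genes, small RNAs and olfactory receptors. Cell markers that were called, H2aw, H3f3a, H2az2, H2bc9, H2bc14 and H3c15 were named after their values were seen. Promoter sequences were from RefSeq (GRCm38.p6) and carry no measurement. Alternatives covered scaling, filtering, shrinkage, array weights, runs, and leaving out times, single arrays or the 5 arrays that stand apart. Python 3.11.15 with pandas 2.3.3 was used for summaries.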

Additional observations from a re-analysis of the deposited data

Results flagged for a closer look

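Of 63 groups of animals tested for a single value far from the rest, 3 had one, and chance gives about 1 in 20 groups. H2bc4 was highest, at 10.995, in replicate 1 of the sleeping animals at 6 h, where the next animal had 10.74. The same animal had the lowest H2bc21 value of its group, at 4.90, where the next had 5.03. H2bc4 was also highest, at 11.33, in replicate 3 of the deprived animals at 12 h, where the next had 10.99, and that array was among the 5 that stand apart. The H3f3b difference between deprived and sleeping animals was not the same at the 4 times (limma F test of the interaction, adjusted p = 0.002823), with -0.29 at 3 h, -0.22 at 6 h, -0.18 at 9 h and 0.047 at 12 h.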

How the results depend on the processing

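Of the 7 genes, 4 were called for the pooled state difference, against 2 without the 6 h animals, 1, 0, 1 and 1 within runs 1, 2, 3 and 4 alone, and 3 without the 3, 9 or 12 h animals or the 5 arrays that stand apart, H2bc3 being lost each time. At 9 h 2 were called, against 0 with only the arrays of that time. Over sleep 3 slopes were called, against 1 without baseline, 1 on the arrays of runs 1 and 2, 1 on the arrays of runs 3 and 4, 5 with a common intercept for both states, 4 with centered arrays (H2bc3 gained, adjusted p = 0.00889) and 2 with repeated quantile normalization (H2az1 lost, adjusted p = 0.0137). Without the 12 h animals 3 were called again, but H3f3b and H2bc3 took the place of H2ax and H2az1. Over deprivation 1 was called, against 0 without the 12 h animals, 0 on the arrays of runs 1 and 2 and 0 on the arrays of runs 3 and 4, and without baseline H3f3b took the place of H2az1. Against baseline 6 genes were called in sleeping and 2 in deprived groups, and within run 3 alone 1 and 0. Settings within runs or without times or baseline rest on fewer animals, and the cause of the other differences was not tested. Without single arrays that lay apart, which were picked after their values were seen, the counts were 2 to 3 at 6 h, 5 to 6 against baseline in sleeping groups and otherwise the same as with them. The H2az1 slope over sleep turned to 0.0072 (adjusted p = 0.919) on the arrays of runs 1 and 2, and no other called value of the 7 genes changed sign under the settings tried. No paired analysis was possible because the labels number no replicates across groups. Arrays give signal over background, not counts, so that the dim second H2bc4 probe set bears least weight. H2bc21, H2bc3 and H2ax, with means of 5.31, 5.68 and 5.88, were also near the middle of all probe sets. How far these 3 genes lay above background was not tested.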
